A study of Mus musculus with 12 samples.

Results

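The heat shock proteins and DNAJ chaperones were taken as every gene of the count table whose symbol starts with Hspa, Hspb, Hspd, Hspe, Hsph, Hsp90 or Dnaj, together with the transcription factors Hsf1 and Hsf2 and the co-chaperone Bag3. Of 93 rows that matched, 15 pseudogene entries were left out, which left 78 genes of the 55335 in the table. They comprised 45 J-domain proteins (4 Dnaja, 13 Dnajb and 28 Dnajc), 13 Hspa genes of the HSP70 family, 10 genes named Hspb, 3 Hsp90 genes, Hspd1, Hsph1, 2 Hspe genes and the 3 others. Genes entered by their names, and not every gene named Hspb is a small heat shock protein. Examples are Hspbp1, an exchange factor of HSP70, and Hspbap1. The series compared mice without the thyrotropin (TSH) receptor gene Tshr in myeloid cells (TshrMKO, a floxed Tshr with Cre driven by the promoter of Lyz2, a gene of myeloid cells) with floxed littermates that carry no such deletion (Tshrf/f). Bone-marrow-derived macrophages (BMDMs) came from male mice (6 weeks old per the labels, where the general methods of the study give a range that starts there) and were grown with M-CSF (10 ng/mL) for 7 days, and all of them then received TSH (1 ng/mL) for 24 h. Livers came from male mice that started a high-fat diet at 6 weeks of age, stayed on it for 9 weeks, fasted for 8 h and were taken 5 min after insulin (1.5 U/kg). Each of the 4 groups held 3 RNA-seq libraries, so no macrophages without TSH and no livers without diet or insulin were compared, and the p-values below measure the spread between these libraries.

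Chaperones keep proteins folded. HSP70 proteins bind unfolded stretches and are loaded by J-domain (DNAJ) partners, HSP110 proteins and Bag3 act as exchange or adaptor factors of that cycle, HSP90 proteins mature signalling proteins, small heat shock proteins hold unfolded clients, and Hspd1 with Hspe1 forms the chaperonin of mitochondria. Under heat or other damage to proteins the factor HSF1 binds heat shock elements and raises a shared group of cytosolic chaperones, whereas unfolded protein in the endoplasmic reticulum (ER) raises another group, led by Hspa5 (BiP), through ER stress response elements. Below, 13 members known as HSF1 targets, 13 ER members and 9 mitochondrial members are described as lists. These lists were chosen with earlier results of these data known, so their tallies describe these libraries and are not a test. Hspd1 and Hspe1 belong to both the first and the last.

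Promoter sequence was taken from RefSeq (GRCm38.p6, windows of 250 bases before and 50 after a start site), which matched 62 of the 78 members. A pair of heat shock units facing each other, GAANNTTC on either strand, lay in the window of 15 of these 62 members (24.2%) and of 9.04% of all 27025 genes with a window. Among the HSF1 targets it lay in 8 of the 10 with a window and among the ER members in 0 of 11. A longer triplet of 3 units, GAANNTTC with a further GAA placed after 2 more bases, contains the pair and also the reverse arrangement TTCNNGAA. It lay in Dnajb6, Hspd1, Hspe1 and Hsph1 and in 0.662% of all genes. The ER stress response element, searched on both strands as CCAAT and CCACG with 9 bases between them, was found in Hspa5, Hsp90b1 and Dnajc3 and in 0.137% of all genes. A match says only that the letters are there. The stretches below lie before a RefSeq start site of genes whose values follow, are printed 5′ to 3′ on the strand of the gene, and have the matching letters in capitals. By the outermost starts of GENCODE, those of Dnaja1 and Hspa5 lie inside the gene, and those of Hsph1 and Hsp90b1 in part. The first 6 hold heat shock units and the last 3 the ER element. In Hsph1 the capitals mark TTCNNGAA, since its GAANNTTC and its triplet lie after the start.
Hspa1a, chr17:34972223-34972290, minus strand: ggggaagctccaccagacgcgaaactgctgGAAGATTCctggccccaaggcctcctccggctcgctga
Hspa1b, chr17:34959305-34959372, minus strand: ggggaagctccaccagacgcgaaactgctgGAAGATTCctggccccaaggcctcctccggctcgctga
Hsph1, chr5:149636337-149636399, minus strand: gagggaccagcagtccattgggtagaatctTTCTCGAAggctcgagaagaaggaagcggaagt
Dnaja1, chr4:40722314-40722381, plus strand: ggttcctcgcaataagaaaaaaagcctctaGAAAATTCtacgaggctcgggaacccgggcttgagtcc
Hspb1, chr5:135887772-135887859, plus strand: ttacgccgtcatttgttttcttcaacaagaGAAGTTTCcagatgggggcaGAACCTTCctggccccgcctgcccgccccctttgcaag
Hspe1, chr1:55088029-55088106, plus strand: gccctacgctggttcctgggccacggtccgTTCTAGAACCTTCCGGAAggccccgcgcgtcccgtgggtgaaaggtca
Hspa5, chr2:34771995-34772073, plus strand: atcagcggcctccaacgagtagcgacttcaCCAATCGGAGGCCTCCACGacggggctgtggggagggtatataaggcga
Hsp90b1, chr10:86705503-86705686, minus strand: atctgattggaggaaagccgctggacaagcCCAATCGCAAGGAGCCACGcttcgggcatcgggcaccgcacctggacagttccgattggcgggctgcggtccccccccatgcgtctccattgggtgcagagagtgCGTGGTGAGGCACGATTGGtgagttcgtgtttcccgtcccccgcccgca
Dnajc3, chr14:118937797-118937875, plus strand: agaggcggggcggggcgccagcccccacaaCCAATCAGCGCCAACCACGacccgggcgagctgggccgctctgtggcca

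Hspa1a and Hspa1b, the inducible HSP70 genes, lie on chromosome 17 as near-identical copies. The 250 bases before their starts were the same at 247 positions. Reads can be assigned to either copy, so their counts are uncertain one by one and their sum is given as well. Hspe1 and Hspd1 are transcribed away from each other and their exons overlap by 112 bases on opposite strands. The stretch printed for Hspe1 lies inside Hspd1 when its outermost start (55088243, GENCODE) is taken, and before the other of the 2 starts that RefSeq gives for Hspd1. The libraries were made strand-specific, but the strand setting of the counting was not given.

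The libraries held 28962878 to 40954211 counts, so that 3 counts stood for 0.0733 to 0.104 CPM (counts scaled to the size of the library). Such limits cover only the error of counting. Levels below are CPM scaled with TMM factors. In the fits per tissue these were 0.738 in Tshrf/f BMDM replicate 3 and 0.891 to 1.11 in the other 11 libraries. In the fit of all 12 libraries, used for tissue and interaction, they were 1.00 to 1.54 in BMDMs and 0.667 to 0.768 in livers. Tshr itself had 0, 0 and 2 counts in Tshrf/f BMDMs, 0, 0 and 5 in TshrMKO BMDMs and 0 in every liver, so the genotypes could not be checked in these counts. Macrophage markers summed to 15827 to 30828 CPM in BMDMs and hepatocyte markers to 78168 to 102330 CPM in livers. In BMDMs, 8 of 10 hepatocyte markers had no count and Arg1, which macrophages can express too, made up nearly all of the rest. Stellate cell and fibroblast markers summed to 1091, 2653 and 1048 CPM in Tshrf/f BMDMs and to 1068, 1333 and 667 CPM in TshrMKO BMDMs. Of these markers, 5 were tested, and all 5 had a log2 fold change (TshrMKO against Tshrf/f) below 0. Their part in the chaperone values was not tested. The liver groups are used as the sample labels give them, because a supplementary table of the study lists liver counts under the opposite headings, and any direction in liver holds for the livers labelled TshrMKO and Tshrf/f. In whole liver and in RNA from whole cultures, a lower level can come from fewer cells of a type or from less RNA per cell. These cannot be told apart.

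The members that passed the filter on low counts numbered 69 in BMDMs, 67 in liver and 65 in both. Those that did not pass had at most 13 counts in a BMDM library and 15 in a liver library. Dnajb8, Dnajc5b, Dnajc5g and Hspb3 had no count in any library. The members held 0.897 to 0.943% of all counts in Tshrf/f BMDMs and 0.759 to 0.795% in TshrMKO BMDMs, ranges that did not overlap. Abundant members weigh most in such a share. Of a member sum of 9038, 8132 and 12779 CPM in the Tshrf/f BMDMs, Hspa8 alone held 2213, 1618 and 3734 CPM. In liver the shares were 0.831 to 1.13% and 0.870 to 1.23%, and they overlapped.

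In BMDMs, no member passed the adjusted threshold, and the lowest unadjusted p belonged to Hspa1a, an inducible HSP70 gene that was lower in the TshrMKO libraries. With edgeR quasi-likelihood tests, 0 of 69 members and 0.0% of the 15372 genes tested had an adjusted p under 0.05. At an unadjusted p under 0.05, 11 members (15.9%) were lower in TshrMKO BMDMs, against 10.2% of all genes, and 1 (1.45%) was higher, against 7.73% (in both directions 17.9%). The log2 fold change lay below 0 in 46 members and above 0 in 23, where 49.2% and 50.8% of all genes did, and its median was -0.20 over the members and 0.01 over all genes tested. DESeq2 called 6 members at an adjusted p under 0.05, where it called 8.3% of all genes: Hspa1a, Hspa1b, Hsph1, Hspa9 and Dnajc21 lower and Dnajb14 higher. With library totals in place of TMM factors, 6 members were lower and 3 higher at an unadjusted p under 0.05, and the median of the members was -0.03. Without any 1 of the 3 TshrMKO libraries, 6 were lower in each case, and without Tshrf/f replicate 2, 17 were lower and 6 higher. Without Tshrf/f replicate 3, 10 were lower and 4 higher, and without TshrMKO replicate 3, 2 were higher. Here and below, counts of calls from alternative fits stand without the share of all genes in the same fit, unless it is given. They show only how the number of calls depends on the fit. Hspa1a, Dnajc21 and Dnajb14 kept their unadjusted calls under every alternative. Hspa1b lost its own in the fit of all 12 libraries, and Hsph1 in that fit and with library totals. Hspa9 lost its call without TshrMKO replicate 1 or 3 and with library totals. Hspa5 lost its call without any 1 TshrMKO library and in the fit of all 12 libraries. Dnaja1 lost its call without TshrMKO replicate 1 or 2, and Hsf2 with library totals. All 10 macrophage markers were detected, and their sum was 15827 to 18423 CPM in Tshrf/f and 20981 to 30828 CPM in TshrMKO BMDMs. Lyz2, whose promoter drives Cre in the TshrMKO mice, made up most of it, and an effect of Cre on the Lyz2 counts was not tested. Single markers lay on both sides of 0 (4 below and 6 above, with 1 lower and 2 higher at an unadjusted p under 0.05), and their part in the chaperone values was not tested.

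**Figure D1:**
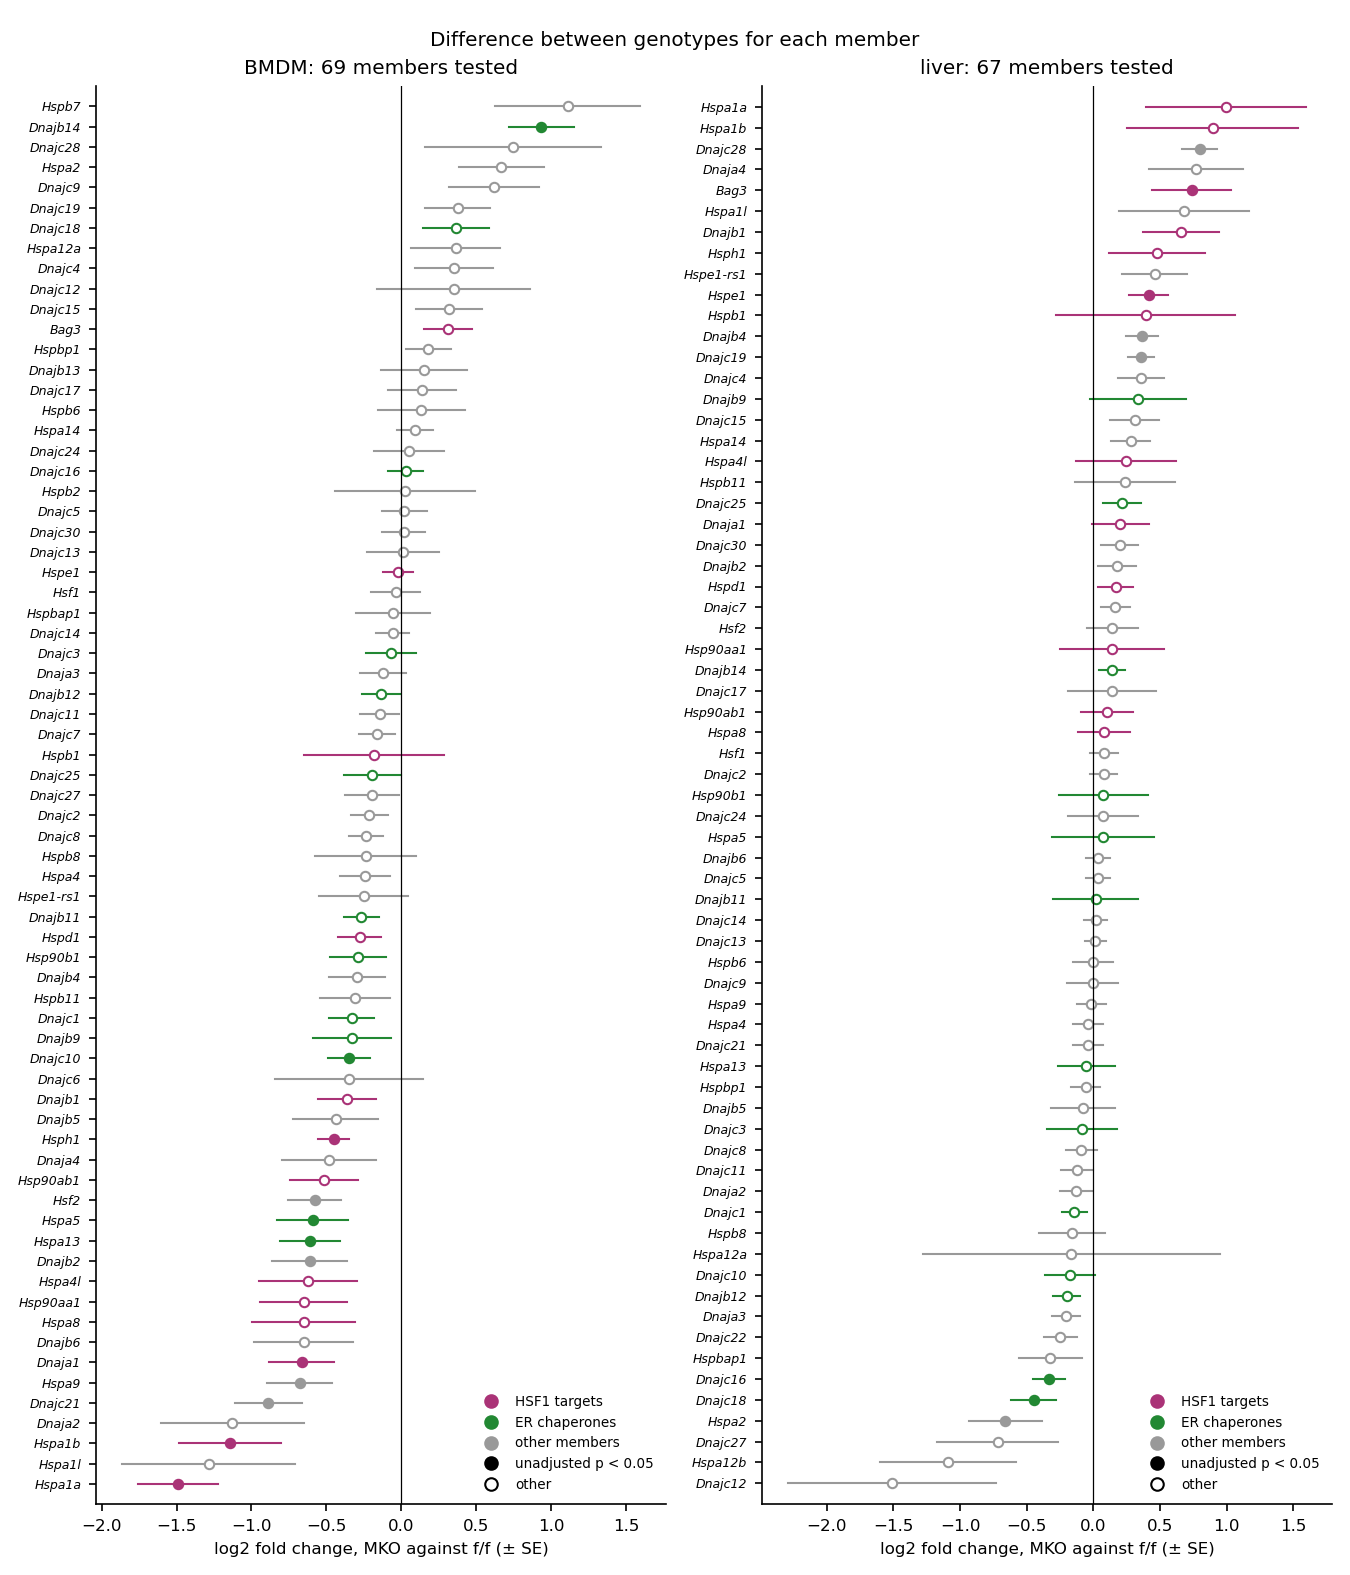
Log2 fold change of TshrMKO against Tshrf/f (x axis, point) with its SE (line) for the 69 members tested in BMDMs and the 67 tested in liver (rows, ordered by value). HSF1 targets are purple, ER chaperones green and other members grey, and filled points have an unadjusted p under 0.05 in edgeR: in BMDMs 11 filled points lie left of 0 and 1 right of it, in liver 3 and 5.

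Hspa1a (ENSMUSG00000091971, chromosome 17, 34969190 to 34972156, GRCm38) stood at 14.3, 11.3 and 15.2 CPM in Tshrf/f BMDMs and at 5.09, 6.08 and 3.37 CPM in TshrMKO BMDMs. All 3 Tshrf/f libraries lay above all 3 TshrMKO libraries, with a log2 fold change of -1.49 ± 0.27 (SE, n = 3 per group, edgeR adjusted p = 0.218, 9.35e-05 to 0.587 over the alternatives). Hspa1b (ENSMUSG00000090877, chromosome 17, 34956436 to 34959238) stood at 16.0, 12.9 and 20.2 CPM in Tshrf/f and at 8.07, 9.82 and 4.31 CPM in TshrMKO libraries. Its groups did not overlap either (-1.14 ± 0.34 on the log2 scale, edgeR adjusted p = 0.223, 0.0352 to 0.587 over the alternatives). The sum of both genes was 30.3, 24.2 and 35.4 CPM against 13.2, 15.9 and 7.69 CPM. Hsph1, the HSP110 exchange factor, had tight groups, with 70.3, 75.1 and 76.3 CPM in Tshrf/f and 52.5, 55.7 and 54.004 CPM in TshrMKO libraries (-0.45 ± 0.10, edgeR adjusted p = 0.218). The difference of Hsph1 lay between -0.47 and -0.43 whichever library was left out.

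**Figure D2:**
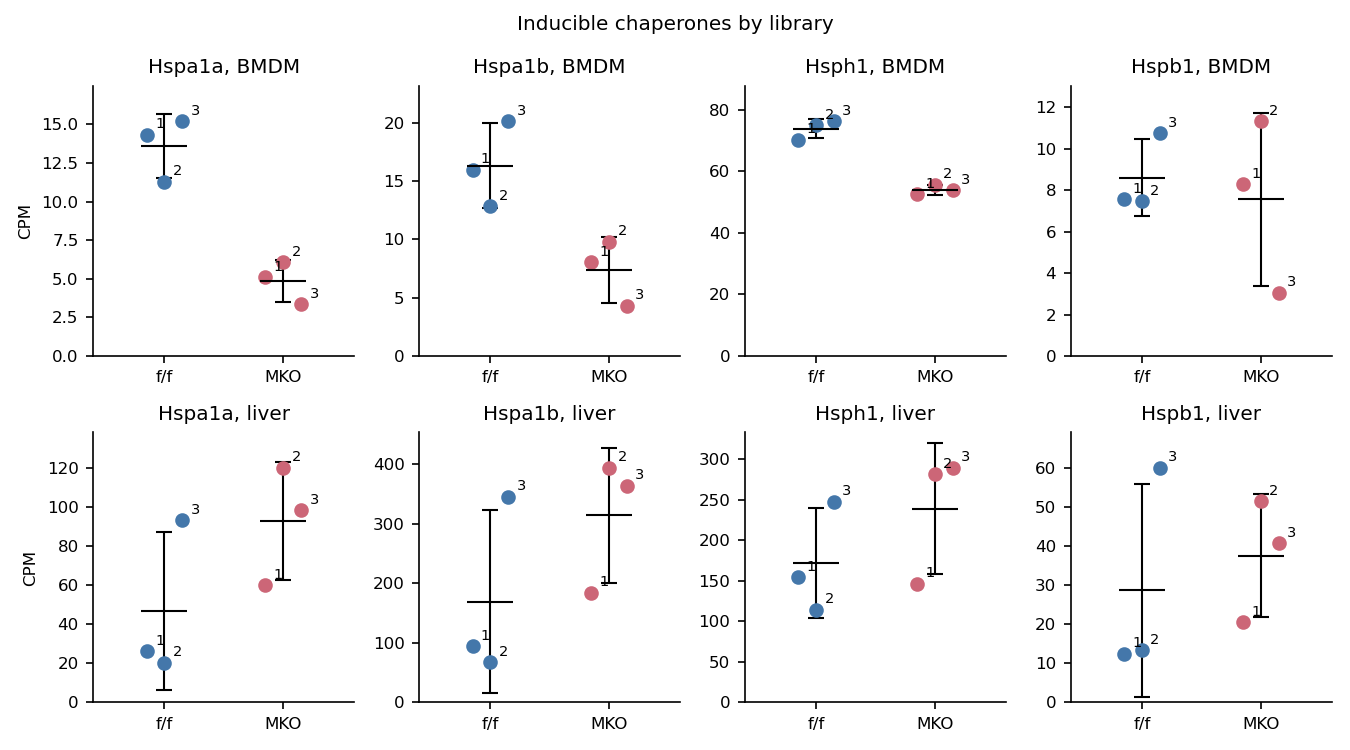
CPM (y axis, from 0) of Hspa1a, Hspa1b, Hsph1 and Hspb1 in the 3 Tshrf/f (blue) and 3 TshrMKO (red) libraries of BMDMs (top) and liver (bottom), numbered by replicate, with the mean (bar) and SD (whiskers). In BMDMs the groups of the first 3 genes do not overlap, and in liver Tshrf/f replicate 3 sits with TshrMKO replicates 2 and 3 for all 4 genes.

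The constitutive members of the cytosol were more variable. Hspa8 (HSC70), the most abundant member, had 2213, 1618 and 3734 CPM in Tshrf/f BMDMs and 1469, 1486 and 1859.7 CPM in TshrMKO BMDMs, and the groups overlapped (-0.65 ± 0.34, edgeR adjusted p = 0.354). Hsp90ab1, the constitutive HSP90, had 1338, 1130.1 and 1805 CPM against 984, 1017 and 988 CPM (-0.52 ± 0.23, edgeR adjusted p = 0.295). Hsp90aa1, its inducible relative, had 322, 314 and 605 CPM against 262, 273 and 256 CPM (-0.65 ± 0.29, edgeR adjusted p = 0.295). The groups of both HSP90 genes did not overlap, and Tshrf/f replicate 3 was the highest library of each of these genes. Without that library the differences of Hspa8, Hsp90ab1 and Hsp90aa1 were -0.26, -0.31 and -0.27.

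Among the J-domain partners, Dnaja1 had 177, 146 and 248 CPM in Tshrf/f and 116, 119.9 and 124 CPM in TshrMKO libraries, without overlap (-0.67 ± 0.22, edgeR adjusted p = 0.234). Dnajb1, the partner of HSP70 in disaggregation, had 39.5, 36.3 and 54.6 CPM against 29.8, 33.3 and 38.4 CPM, with overlap (-0.36 ± 0.19, edgeR adjusted p = 0.356). Dnajc21, a J-domain protein of ribosome assembly, had 31.4, 32.0 and 52.6 CPM against 19.4, 20.9 and 22.3 CPM (-0.89 ± 0.23, edgeR adjusted p = 0.218). Both Dnaja1 and Dnajc21 were thus lower in every TshrMKO library than in any Tshrf/f library. Dnajb14, a J-domain protein of the ER membrane, was the only member higher at an unadjusted p under 0.05. It had 58.0, 48.8 and 32.6 CPM in Tshrf/f and 87.7, 88.0 and 91.0 CPM in TshrMKO BMDMs (0.94 ± 0.22, edgeR adjusted p = 0.218, 0.00604 to 0.587 over the alternatives). A fit of edgeR on all 12 libraries called Dnajb14 in BMDMs (adjusted p = 0.0413), together with 0.87% of all genes and no other member.

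Hspb1, the small heat shock protein HSP25, had groups that overlapped: 7.56, 7.49 and 10.8 CPM in Tshrf/f and 8.30, 11.3 and 3.06 CPM in TshrMKO BMDMs (-0.18 ± 0.47, edgeR adjusted p = 0.845). In the mitochondrial chaperonin pair, Hspd1 (HSP60) had 187, 164 and 200.4 CPM against 148, 160.2 and 147 CPM (-0.28 ± 0.14, edgeR adjusted p = 0.344). Hspe1 (HSP10) had 46.5, 43.9 and 41.5 CPM against 42.6, 44.3 and 43.1 CPM (-0.02 ± 0.10, edgeR adjusted p = 0.925). The groups of Hspd1 did not overlap and those of Hspe1 did, and the difference between the genes was not tested. Bag3 was the one HSF1 target above 0, with 32.3, 30.3 and 41.1 CPM against 46.9, 44.0 and 37.7 CPM (0.31 ± 0.16, edgeR adjusted p = 0.344).

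Of the list of HSF1 targets, 12 of 13 lay below 0 in TshrMKO BMDMs, 4 of them at an unadjusted p under 0.05 (10.2% of all genes). The groups of 7 did not overlap, against 14.0% of all genes in that direction. The list was not chosen independently of these data, so these tallies only describe it. Their median log2 fold change was -0.52, beside -0.20 over all members tested and 0.01 over all genes tested. Tshrf/f replicate 3, the library with the lowest TMM factor, was the highest of the 6 libraries in 10 of the 13 targets, in 32 of the 69 members and in 31.1% of all genes. Without it the median of the targets was -0.26, and with library totals only it was -0.29. The part of that library in the result was otherwise not tested. Of the factors themselves, Hsf1 had 27.7, 23.1 and 27.1 CPM against 30.002, 24.4 and 21.5 CPM (-0.04 ± 0.16, edgeR adjusted p = 0.909). Hsf2 had 17.6, 18.9 and 25.5 CPM against 14.5, 13.8 and 13.3 CPM, without overlap (-0.58 ± 0.18, edgeR adjusted p = 0.226).

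Of the 13 ER members, 10 lay below 0 in TshrMKO BMDMs, with 3 lower and 1 higher at an unadjusted p under 0.05 (10.2% and 7.73% of all genes) and a median of -0.27. Hspa5 had 940.0, 913 and 1419 CPM in Tshrf/f and 690.0, 702 and 779 CPM in TshrMKO BMDMs, without overlap (-0.59 ± 0.24, edgeR adjusted p = 0.267). Hsp90b1 (GRP94), the HSP90 of the ER, had 828, 918 and 983 CPM against 672, 719.6 and 844 CPM, with overlap (-0.29 ± 0.19, edgeR adjusted p = 0.431). Dnajb9 (ERdj4), a partner of BiP, had 29.4, 40.5 and 61.2 CPM against 34.1, 34.1 and 36.0 CPM (-0.33 ± 0.26, edgeR adjusted p = 0.511). The 3 Tshrf/f libraries thus spanned the TshrMKO values of Dnajb9. Among the 9 mitochondrial members, 5 lay below 0, with a median of -0.02. Hspa9 (mortalin), the HSP70 of mitochondria, was the one of them at an unadjusted p under 0.05, with 451, 429 and 560.3 CPM against 303, 358 and 239 CPM (-0.68 ± 0.22, edgeR adjusted p = 0.232).

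Other genes of protein folding, none of them a member, were counted in the same way, beside 10.2% of all genes lower and 7.73% higher at an unadjusted p under 0.05 and 14.0% lower without overlap. In TshrMKO BMDMs, 23 of 30 co-chaperones of HSP90 and HSP70 lay below 0, 5 of them lower and 0 higher at an unadjusted p under 0.05. Stip1 (HOP), which links HSP70 to HSP90, had 147, 135 and 249 CPM against 105, 101 and 89.8 CPM (-0.84 ± 0.26, edgeR adjusted p = 0.227). Chordc1 and Ptges3 (p23), both partners of HSP90, differed by -0.51 ± 0.15 (edgeR adjusted p = 0.223) and -0.68 ± 0.25 (edgeR adjusted p = 0.257). Of the 14 subunits of the cytosolic chaperonin and prefoldin, 13 lay below 0, 6 were lower at an unadjusted p under 0.05, and 10 had groups that did not overlap. Tshrf/f replicate 3 was the highest library in 10 of these 14 genes and in 12 of the 30 co-chaperones, against 31.1% of all genes. The part of that library and of the scaling in these lists was not tested. The chaperonin subunit Cct3 had 149, 138 and 186 CPM against 106, 117 and 101.7 CPM (-0.54 ± 0.16, edgeR adjusted p = 0.223). Of 20 genes of the unfolded protein response, 13 lay below 0, with 2 lower (Manf and Creld2, both secreted ER stress proteins) and 2 higher. Of 12 immediate-early genes, which respond fast to handling, 1 was lower (Junb) and 1 higher (Jun, 1.13 ± 0.20, edgeR adjusted p = 0.218).

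In the livers labelled TshrMKO, no member passed the adjusted threshold. The HSF1 targets had their highest values in 3 livers that came from both groups. With edgeR, 0 of 67 members and 0.0% of the 15062 genes tested had an adjusted p under 0.05. At an unadjusted p under 0.05, 3 members (4.48%) were lower and 5 (7.46%) higher, against 5.18% and 5.27% of all genes. Groups did not overlap in 4 members that were lower and 7 that were higher, against 7.73% and 9.6% of all genes, and the log2 fold change lay below 0 in 26 members and above 0 in 41 (50.9% and 49.1% of all genes), with a median of 0.07. DESeq2 called 1 member, Dnajc28, at an adjusted p under 0.05, where it called 2.16% of all genes. The counts depended on single livers: without TshrMKO replicate 3 there were 0 lower and 2 higher, and without Tshrf/f replicate 3 there were 2 lower and 10 higher. Without TshrMKO replicate 2, or without Tshrf/f replicate 1, 1 member was lower, and without Tshrf/f replicate 2, 3 were higher. The first letter of the sample IDs, A or B, split the livers across both groups, and with it as a covariate 1 member was lower and 4 higher.

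Dnajc28, a J-domain protein of chromosome 16 (91614254 to 91619026), had the lowest p of the members in liver. It stood at 7.92, 7.39 and 7.63 CPM in the livers labelled Tshrf/f and at 14.9, 12.02 and 12.95 CPM in those labelled TshrMKO. The groups did not overlap (0.80 ± 0.13 on the log2 scale, edgeR adjusted p = 0.303, 0.000921 to 0.710 over the alternatives). Dnajc19, the J-domain protein of the import motor of the inner mitochondrial membrane, had 18.7, 17.0 and 17.3 CPM against 24.2, 20.8 and 22.9 CPM (0.36 ± 0.10, edgeR adjusted p = 0.343). Dnajb4, a cytosolic partner of HSP70, had 42.2, 34.4 and 42.0 CPM against 46.5, 49.4 and 56.6 CPM (0.36 ± 0.12, edgeR adjusted p = 0.400). Hspe1 had 71.3, 55.4 and 72.7 CPM against 75.9, 92.7 and 96.9 CPM (0.41 ± 0.14, edgeR adjusted p = 0.416). These 4 genes were higher in each liver labelled TshrMKO than in any labelled Tshrf/f. Dnajc16 and Dnajc18, both of the ER, were the reverse. Each lost its call without TshrMKO replicate 3, without Tshrf/f replicate 1 and with the ID letter as a covariate. Dnajc16 also lost it without TshrMKO replicate 2 or Tshrf/f replicate 3. Dnajc18 also lost it without TshrMKO replicate 1, in the fit of all 12 libraries and with a replicate block. Among the 4 higher genes, Dnajb4 and Hspe1 lost their calls without Tshrf/f replicate 2 or TshrMKO replicate 3. Hspe1 also lost its call without TshrMKO replicate 2, and Dnajc28 in the fit of all 12 libraries. Dnajc16 had 22.2, 19.7 and 20.5 CPM against 18.8, 14.5 and 16.2 CPM (-0.33 ± 0.12, edgeR adjusted p = 0.430). Dnajc18 had 13.1, 10.3 and 9.62 CPM against 7.12, 8.88 and 8.18 CPM (-0.45 ± 0.17, edgeR adjusted p = 0.436).

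The inducible HSP70 genes varied widely within the liver groups. Hspa1a had 26.2, 20.5 and 93.3 CPM in the livers labelled Tshrf/f and 60.2, 120.3 and 98.4 CPM in those labelled TshrMKO (1.00 ± 0.60, edgeR adjusted p = 0.605). Hspa1b had 94.5, 67.2 and 345 CPM against 184, 394 and 364 CPM (0.89 ± 0.64, edgeR adjusted p = 0.683). Tshrf/f replicate 3 thus lay with TshrMKO replicates 2 and 3, and TshrMKO replicate 1 lay between these 3 and the other 2 Tshrf/f livers. Hspb1 had 12.5, 13.4 and 60.1 CPM against 20.6, 51.5 and 40.8 CPM (0.39 ± 0.67, edgeR adjusted p = 0.890). Its highest liver was labelled Tshrf/f. Across the 6 livers the highest value of Hspa1a was 5.88 times the lowest and that of Hspb1 4.81 times, where the median gene tested had a ratio of 1.61.

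The same 3 livers were the highest in 12 of the 13 HSF1 targets: Tshrf/f replicate 3, TshrMKO replicate 2 and TshrMKO replicate 3. This order of livers was found in 3.78% of all genes tested and in 16 of the 67 members, and the list was not chosen independently of these data. Hspe1 was the exception. Hsph1 had 154, 115 and 248 CPM in Tshrf/f and 147, 282 and 289.8 CPM in TshrMKO livers (0.47 ± 0.36, edgeR adjusted p = 0.699). Dnajb1 had 42.7, 37.4 and 65.1 CPM against 51.0, 85.8 and 92.3 CPM (0.66 ± 0.29, edgeR adjusted p = 0.494). Bag3 had 62.2, 35.6 and 74.1 CPM against 71.0, 103 and 113 CPM (0.74 ± 0.30, edgeR adjusted p = 0.463). In each of them TshrMKO replicate 1 lay at or below the highest Tshrf/f liver, so the groups overlapped.

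The abundant targets showed the same order with smaller steps. Hspa8 had 1977, 1705 and 2421 CPM in Tshrf/f and 1716, 2276 and 2458 CPM in TshrMKO livers (0.08 ± 0.19, edgeR adjusted p = 0.928). Hsp90ab1 had 1228, 1118 and 1671 CPM against 1171, 1564 and 1574 CPM (0.10 ± 0.20, edgeR adjusted p = 0.906). Hsp90aa1 had 291, 200.01 and 511 CPM against 235, 436 and 435 CPM (0.14 ± 0.39, edgeR adjusted p = 0.938). In both HSP90 genes the highest liver was Tshrf/f replicate 3. Dnaja1 had 316, 303 and 402 CPM against 284, 417 and 474 CPM (0.20 ± 0.21, edgeR adjusted p = 0.788), and Hspd1 had 381, 337 and 433 CPM against 396, 425 and 469.6 CPM (0.17 ± 0.13, edgeR adjusted p = 0.712). All 13 targets lay above 0, with a median of 0.39, 2 of them (Hspe1 and Bag3) at an unadjusted p under 0.05 and 1 with groups that did not overlap. Both of these calls were lost without Tshrf/f replicate 2, TshrMKO replicate 2 or TshrMKO replicate 3, and that of Bag3 also without Tshrf/f replicate 1 and with the ID letter as a covariate. The median was 0.12 without Tshrf/f replicate 2, 0.15 without Tshrf/f replicate 1, 0.16 without TshrMKO replicate 2 and 0.68 without Tshrf/f replicate 3. Hsf1 had 17.1, 17.8 and 17.2 CPM against 16.2, 19.2 and 19.6 CPM (0.08 ± 0.11, edgeR adjusted p = 0.846). Hsf2 had 21.99, 15.5 and 23.5 CPM against 18.4, 24.0 and 24.9 CPM (0.14 ± 0.19, edgeR adjusted p = 0.841).

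**Figure D3:**
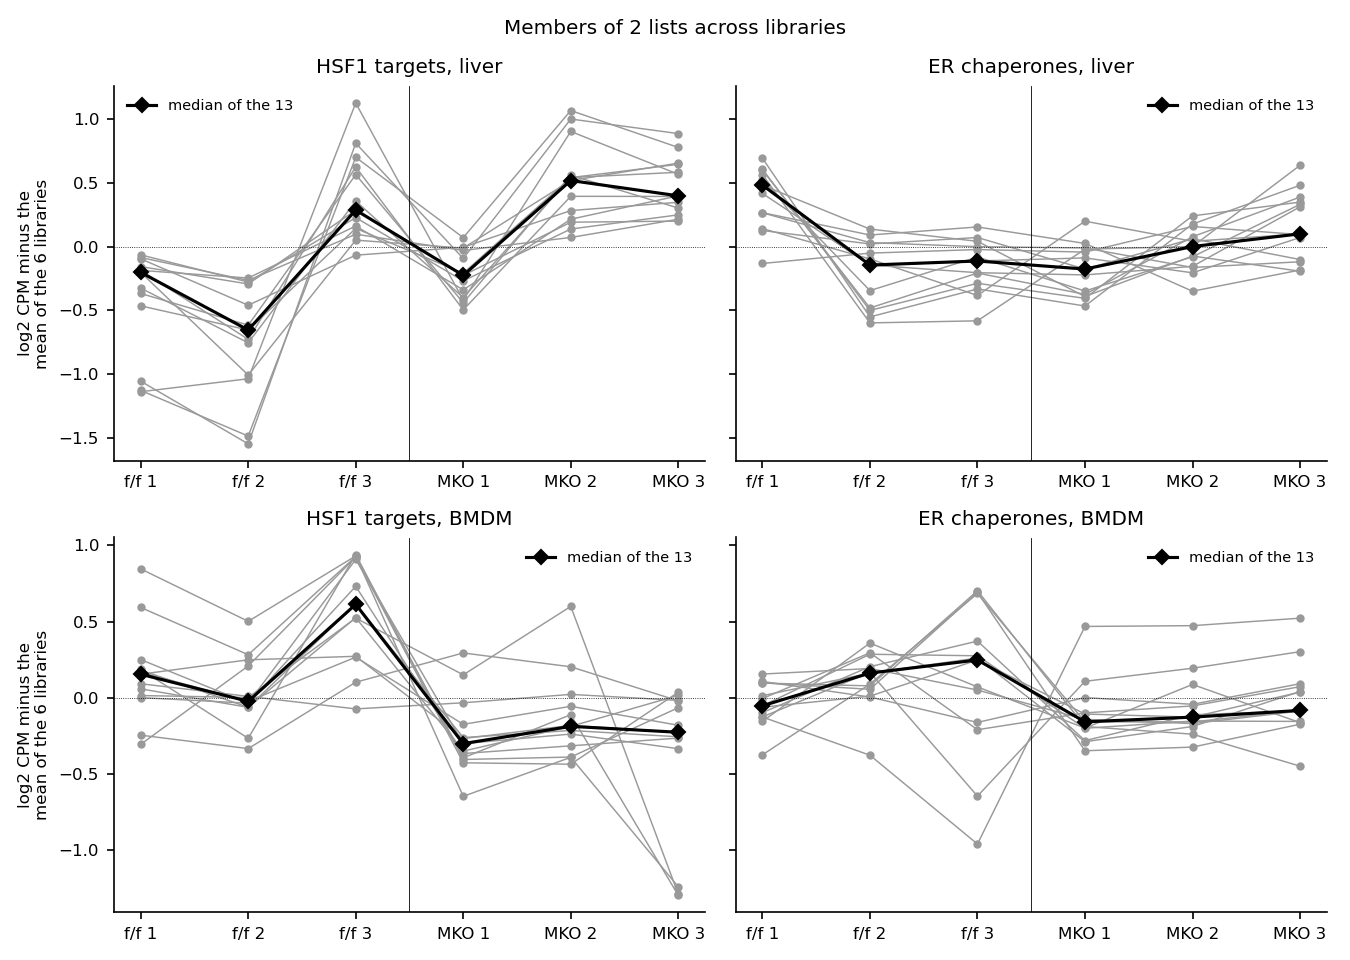
Level of the 13 HSF1 targets (left) and 13 ER chaperones (right) in each library of liver (top) and BMDMs (bottom), as log2 CPM minus the mean of the gene over the 6 libraries (y axis). Grey lines join the values of 1 gene and black diamonds are medians, and the order of libraries along the x axis has no meaning within a group. In liver the targets are high in Tshrf/f 3, TshrMKO 2 and TshrMKO 3, the ER chaperones in Tshrf/f 1, and in BMDMs most targets are highest in Tshrf/f 3.

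Some ER chaperones had another order of livers. Hspa5 had 2209, 931 and 1084 CPM in Tshrf/f and 988, 1543 and 1905 CPM in TshrMKO livers (0.07 ± 0.38, edgeR adjusted p = 0.973). Hsp90b1 had 1793, 832 and 964 CPM against 888, 1391 and 1499 CPM (0.07 ± 0.33, edgeR adjusted p = 0.966). Dnajb9 had 124, 55.5 and 56.1 CPM against 82.9, 84.0 and 131 CPM (0.34 ± 0.36, edgeR adjusted p = 0.801). Here Tshrf/f replicate 1, low in the HSF1 targets, lay with TshrMKO replicates 2 and 3. These were the 3 highest livers in 5 of the 13 ER members and not in the other 8, in 14 of 20 genes of the unfolded protein response and in 5.39% of all genes. Summed over the list, ER members reached 4898, 2291 and 2630 CPM in Tshrf/f and 2433, 3563 and 4200.4 CPM in TshrMKO livers, and HSF1 targets reached 4683, 4028 and 6445 CPM and 4436, 6294 and 6546 CPM. The 3 high livers of the targets carry the sample ID letters B, B and A, and those of the ER chaperones A, B and A. The part of the letter in these orders was not tested. Hspa9 was even, with 487, 424 and 455 CPM against 470.1, 416 and 466 CPM (-0.01 ± 0.11, edgeR adjusted p = 0.981). Of the 9 mitochondrial members, 3 (Dnajc28, Dnajc19 and Hspe1) were higher at an unadjusted p under 0.05 (5.27% of all genes), and the median was 0.20.

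Markers of other cells differed between these livers. In Tshrf/f replicate 1, stellate cell and fibroblast markers summed to 35.5 CPM and endothelial markers to 46.4 CPM, where the other 5 livers had 120.4 to 317 and 109 to 169.8 CPM, and neutrophil markers to 93.6 CPM, where the others had 8.19 to 29.03 CPM. Kupffer cell markers, all 8 of them detected, ranged over 290.3 to 792 CPM in Tshrf/f and 260.0 to 651 CPM in TshrMKO livers. Of 12 immediate-early genes, 6 were lower in TshrMKO livers at an unadjusted p under 0.05, among them Dusp1 (-1.74 ± 0.14, edgeR adjusted p = 0.0634), and their sums of 468 to 526 and 252 to 311 CPM did not overlap. Their order of livers is not that of the HSF1 targets, and their part in the chaperone values was not tested. Of the 30 co-chaperones, 3 were lower and 3 higher in TshrMKO livers at an unadjusted p under 0.05 (5.18% and 5.27% of all genes), among them Grpel2, an exchange factor of Hspa9 (-0.77 ± 0.19, edgeR adjusted p = 0.334), and Bag1 (0.29 ± 0.08, edgeR adjusted p = 0.340). Of 14 chaperonin and prefoldin subunits, only Pfdn5 had an unadjusted p under 0.05 (0.34 ± 0.08, edgeR adjusted p = 0.320). In the unfolded protein response 2 genes were lower and 1 higher, the factor Ddit3 (CHOP), with 19.1, 9.46 and 8.66 CPM against 17.3, 38.5 and 31.8 CPM (1.24 ± 0.40, edgeR adjusted p = 0.395).

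Whether the genotype difference itself differed between BMDMs and liver was tested as an interaction in the fit of all 12 libraries. Of 71 members, 13 had an interaction below 0 (a lower log2 fold change in BMDMs than in liver) and 3 above 0 at an unadjusted p under 0.05, against 7.42% and 7.12% of all genes. No member passed the adjusted threshold, at which 0.0058% of all genes were called. Hspa1a had the lowest adjusted p, with an interaction of -2.49 ± 0.73 on the log2 scale (edgeR adjusted p = 0.208), made of -1.49 in BMDMs and 1.00 in liver. Hspa1b (-2.04 ± 0.81, edgeR adjusted p = 0.298), Dnajb1 (-1.02 ± 0.38, edgeR adjusted p = 0.276) and Hsph1 (-0.92 ± 0.41, edgeR adjusted p = 0.339) had the same sign. DESeq2 called 3 members (Hspa1a below 0, Hspa2 and Dnajb14 above 0), where it called 4.98% of all genes. Without Tshrf/f BMDM replicate 3, or without TshrMKO liver replicate 2, 6 members were below 0. Without TshrMKO liver replicate 3 and Tshrf/f liver replicate 2, left out one at a time, 7 and 8 were, and without Tshrf/f BMDM replicate 2, 6 were above 0.

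In the floxed controls alone, members were called between macrophages and liver about as often as other genes, of which 69.3% were. Comparing the Tshrf/f groups, 36 of 71 members were lower and 14 higher in BMDMs at an adjusted p under 0.05 (edgeR), against 36.6% and 32.7% of all genes. This split depends on the scaling, which moved the median of all genes by 0.82 on the log2 scale: with library totals in place of TMM factors 23 members were lower and 29 higher. Of the 13 HSF1 targets, 10 were lower in BMDMs and 0 higher, and with library totals 8 and 0. Of the 9 mitochondrial members, 8 were lower and 0 higher, and with library totals 6 and 1. Of the 13 ER members, 8 were lower and 2 higher, and with library totals 4 and 5. Diet, insulin, TSH and culture differ between these groups along with the cell type and cannot be told apart from it.

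Per kilobase of exon, the same 3 genes led in both. Hspa8 had 431 ± 188 CPM per kb in Tshrf/f BMDMs and 640.0 ± 115 in Tshrf/f livers (SD, n = 3), Hsp90ab1 349 ± 86.6 and 604 ± 134, and Hspa5 189 ± 50.3 and 449 ± 217. The libraries of Hspa8 and Hsp90ab1 overlapped in both, and those of Hsp90ab1 and Hspa5 overlapped in livers but not in BMDMs (273 to 443 against 157 to 247 CPM per kb). Hspb8, a small heat shock protein that works with Bag3, ranked at 42 in BMDMs and at 6 in livers. It had 4.93, 6.25 and 7.04 CPM in BMDMs and 444, 267 and 375 CPM in livers on the scale of all 12 libraries, without overlap (-5.90 ± 0.37 on the log2 scale, edgeR adjusted p = 2.57e-07). Hspa1b had 11.8, 9.35 and 14.8 CPM in BMDMs and 126, 91.6 and 469 CPM in livers (-4.26 ± 0.64, edgeR adjusted p = 0.000158). Dnajc12, a co-chaperone of the aromatic amino acid hydroxylases, had 2.69, 6.00 and 1.39 CPM in BMDMs and 83.8, 10.4 and 24.4 CPM in livers (-3.54 ± 0.77, edgeR adjusted p = 0.00188). The livers thus differed among themselves by more than the BMDMs in both genes.

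Dnajc28 had 0.278, 1.13 and 0.339 CPM in BMDMs and 10.6, 10.1 and 10.4 CPM in livers (-4.11 ± 0.44, edgeR adjusted p = 1.29e-05). Dnajc22, a J-domain protein of membranes, had no count in the Tshrf/f BMDMs and 133.5, 99.5 and 117 CPM in livers, a level at least 1839-fold higher when 3 counts per BMDM library are taken as the limit. In the other direction, Dnajc27, which joins a small GTPase to a J domain, had 9.08, 6.63 and 6.90 CPM in BMDMs and 0.723, 1.84 and 1.13 CPM in livers (2.60 ± 0.32, edgeR adjusted p = 3.38e-05). Dnajc13 (RME-8), a J-domain protein of endosomes, had 169, 159 and 245 CPM against 43.2, 44.4 and 42.6 CPM (2.14 ± 0.20, edgeR adjusted p = 3.82e-06). Dnajc10 (ERdj5), a disulfide reductase of the ER, had 80.5, 100.1 and 101 CPM against 37.3, 24.4 and 25.0 CPM (1.70 ± 0.17, edgeR adjusted p = 7.04e-06). Each of these 3 genes was higher in every BMDM library than in any liver. Hspa1l, an HSP70 gene next to Hspa1a that is known from testis, was low in both, with 0.852, 0.482 and 2.15 CPM in BMDMs and 0.226, 0.489 and 0.586 CPM in livers (1.40 ± 0.55, edgeR adjusted p = 0.0430, 0.00389 to 0.249 over the alternatives). Its call was lost without Tshrf/f BMDM replicate 3, where the difference was 0.63, and also without Tshrf/f liver replicate 1 or 2, without the filter on low counts, with the replicate block and in a fit of the 6 Tshrf/f libraries alone. Hspb7 had 0.333, 0.166 and 0.255 CPM in BMDMs and no count in livers, at least 1.97-fold higher at a limit of 3 counts per liver library.

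**Figure D4:**
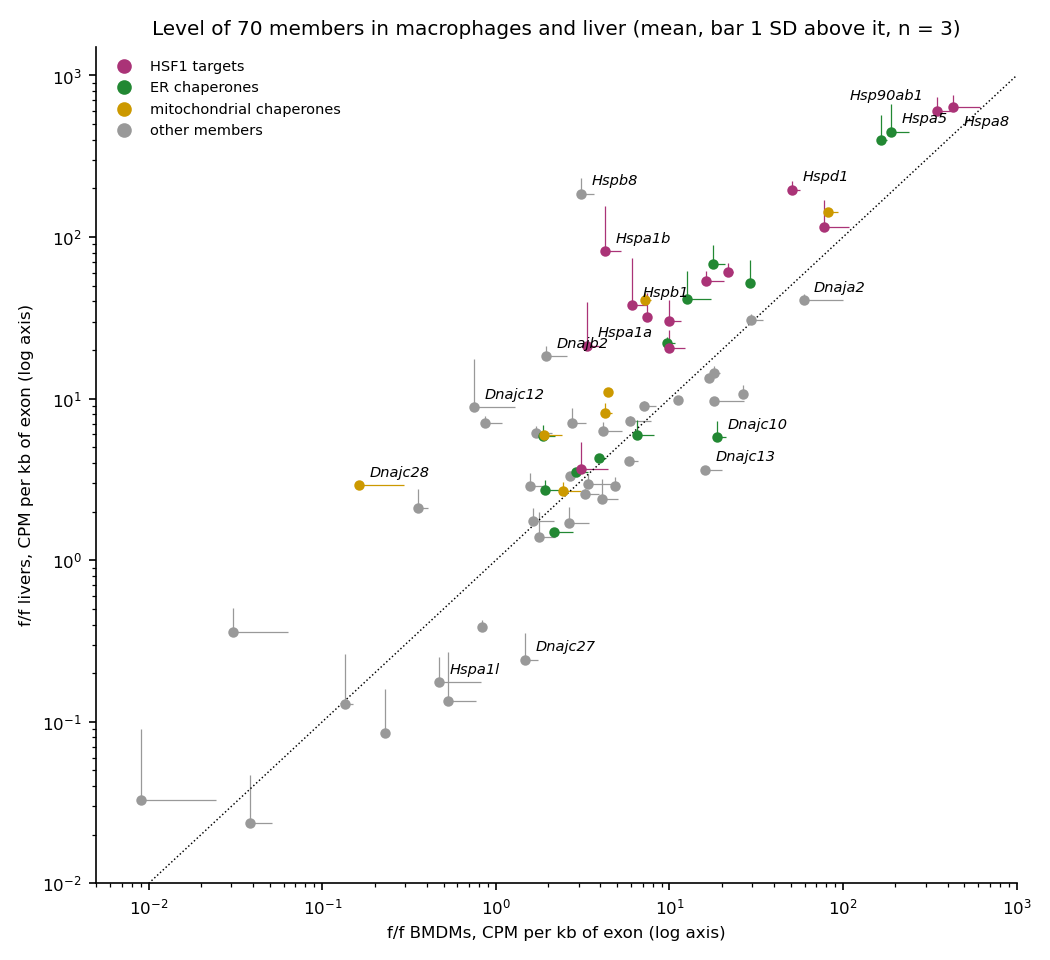
Mean level of 70 members in Tshrf/f livers (y axis) against Tshrf/f BMDMs (x axis), in CPM per kb of exon on log axes, with bars of 1 SD above the mean (n = 3) and the dotted line marking equal levels. Most HSF1 targets (purple) lie above the line and Dnajc10, Dnajc13 and Dnajc27 below it, and members without a count in 1 or both groups are not drawn.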

How the data were processed

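The deposited table held raw read counts per gene, made by the authors from strand-specific libraries without pooling replicates. The submitters' processing notes name FastQC 0.11.2, STAR, StringTie and mm10, and the counting program and its strand setting were not given in the sources used here. All 12 libraries were grouped by the sample labels, 3 per group, and 0 columns were left unmapped. Totals were 28962878 to 40954211 counts. No pair of replicates was identical (chi-square per degree of freedom of 13.4 to 584).

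Counts were analysed with edgeR 4.0.16 in R 4.3.3 (filterByExpr, TMM factors, robust quasi-likelihood tests, Benjamini-Hochberg adjustment over all genes tested, two-sided, threshold 0.05), per tissue for genotype and over all 12 libraries for tissue and interaction. The procedure was first tested on simulated data. CPM are on the TMM scale of the same fit. Per-kb levels used the exon union of GENCODE M21 (GRCm38), which matched all 78 members. Where a group had no count, 3 counts per library set the bound. Groups were said not to overlap when every library of one lay above every library of the other.

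Genes with full values were 18 principal members, members with the largest differences at an unadjusted p under 0.05 without overlap, the 5 largest tissue differences each way, and the 3 highest per kb. From each list of other genes only the 3 of lowest p could be named. The members and lists were chosen with earlier results of these data known. Alternatives were DESeq2 1.42.0, RLE and upper-quartile factors, library totals, other filters, other sample sets, a replicate block, the sample ID letter, and each library left out in turn. Figures were drawn with matplotlib 3.10.9. Columns of the authors' own comparisons were not used.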

Additional observations from a re-analysis of the deposited data

How the results depend on the processing

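Among the counts of members called, 126 stayed near the reported count under the alternatives and 36 moved. Among single genes and list medians, 812 values stayed the same in sign and, for genes, in call. A call here is an adjusted p under 0.05. Of the others, 8 gained and 6 lost such a call and 34 turned in sign. Between genotypes no member had such a call in the reported fits, so none could be lost there. Of the calls at an unadjusted p under 0.05, leaving out 1 library kept 7 to 12 of 12 in BMDMs and 2 to 7 of 8 in liver. In BMDMs, where 11 members were lower and 1 higher at an unadjusted p under 0.05, DESeq2 gave 17 and 2 with 6 at an adjusted p under 0.05, the fit of all 12 libraries 4 higher and 1 adjusted, library totals 6 and 3, RLE factors or no filter 2 higher, and upper-quartile factors 3 higher. With 1 library left out there were 6 to 17 lower, 1 to 6 higher and 0 adjusted. In liver, DESeq2 gave 1 adjusted call, the ID letter 1 lower member, and leaving out 1 liver 0 to 4 lower and 2 to 10 higher.

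For tissue, the 6 Tshrf/f libraries alone gave 7 higher members and library totals 23 lower and 29 higher, and leaving out 1 library gave 32 to 35 and 11 to 14. For the interaction, DESeq2 gave 3 adjusted calls and library totals 8 below 0, and leaving out 1 library gave 6 to 19 below and 3 to 6 above 0. The cause of these shifts was not tested.

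Differences near 0 turned in sign. With library totals in BMDMs, the mitochondrial median was 0.15, Hspb1 0.055, Hspe1 0.15 and Hsf1 0.15, and Hspa9 in liver was 0.016. With upper-quartile factors the mitochondrial median was 0.052, Hspe1 0.052 and Hsf1 0.042. Hspe1 was 0.0064 under a filter at a mean of 50 counts, and the ER median in liver was 0.083 with the ID letter. With 1 library left out, the BMDM mitochondrial median ran from -0.059 to 0.027, Hspb1 from -0.59 to 0.19, Hspe1 from -0.059 to 0.045 and Hsf1 from -0.18 to 0.066. In liver the ER median ran from -0.18 to 0.16, Hspa9 from -0.066 to 0.028, Hsp90aa1 from -0.13 to 0.58, Hsp90ab1 from -0.017 to 0.29, Hsp90b1 from -0.13 to 0.48, Hspa5 from -0.16 to 0.54, Hspa8 from -0.037 to 0.22 and Hsf2 from -0.023 to 0.26.

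Samples of the same replicate number shared only that number: their deviations correlated at 0.14, 0.03 and 0.11 in BMDMs and at -0.07, 0.25 and -0.03 in liver, and not every sample correlated best with its own number. With a replicate block, 10 members were lower and 1 higher in BMDMs, 1 lower and 7 higher in liver, 36 lower and 13 higher between tissues, and 12 below and 3 above 0 in the interaction.

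With 3 libraries a group, a level of Tshr could not be resolved at these depths, and 9 members in BMDMs and 11 in liver had too few counts to test.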

Other observations

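Within the inducible HSP70 pair, Hspa1b values were 1.12 to 1.61 times those of Hspa1a in the 6 BMDM libraries and 3.06 to 3.70 times in the 6 livers. Reads of these near-identical copies can be assigned to either, so the ratio is given as a value only.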
